A study of Sus scrofa with 12 samples.

Results

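The 10 genes described here mark the endothelium, the cell layer that lines blood vessels, or act in the growth of vessels. They were taken by symbol from the table of coding genes: PECAM1, VWF, CDH5 and EMCN, KDR, FLT1, TEK and TIE1, and VEGFA and ANGPT2. All 10 were found among the 21674 genes of the table, each with 1 entry.

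VEGFA is the main growth factor of blood vessels. It acts through KDR, which carries most of its signal for division and survival, while FLT1 binds VEGFA tightly and, also in a soluble form, can hold it away from KDR. In the angiopoietin pathway ANGPT1 activates the receptor TEK and steadies vessels, ANGPT2 acts on TEK in a way that depends on context and often opposes ANGPT1, and TIE1 is a related receptor that modulates TEK. In the testis the vessels run in the interstitium, among Leydig cells and outside the seminiferous tubules in which germ cells develop.

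Testes were taken by castration from Hezuo boars (HZ), a Chinese breed, and from Landrace boars (LC), all kept under the same natural conditions. Group Ha held HZ boars of 30 days, Hb HZ boars of 120 days, La LC boars of 30 days and Lb LC boars of 120 days, with 3 biological replicates in each, 12 libraries in all. Total RNA was extracted with Trizol, ribosomal RNA was removed, and strand-specific libraries were sequenced. The estimated counts of coding genes summed to between 17165519 in Hb3 and 23758931 in Ha1. Levels are given as CPM, counts scaled to a common library size with trimmed mean of M values (TMM) factors, and levels of different genes are compared only as FPKM, which takes account of transcript length.

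The labelled tissue was checked on marker lists. None of the defining markers of Leydig, Sertoli or germ cells that were listed was at 0 in all 12 libraries, and INSL3 was the most abundant Leydig marker, INHA the most abundant Sertoli marker and PRM1 the most abundant germ cell marker by FPKM.

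Several libraries stood apart. EMCN was listed at 0 estimated counts in Hb2 and La3, where 3 counts would be 0.139 and 0.121 CPM, while the other libraries of those groups held it. Low expression and the assignment of its reads to another transcript model cannot be told apart there. Within Hb, replicate 2 held the highest CPM for 7 of the 10 genes, and within Lb, replicate 2 held the highest for 8 of 10. The summed level of 7 Leydig markers was 4021 CPM in Hb1 against 329.9 and 266 CPM in Hb2 and Hb3. EMCN values and tests are therefore also given without Hb2 and La3, a choice made after the values had been seen.

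Per transcript length VWF, the clotting factor stored by endothelial cells, was the most abundant of the 10 genes in each group. Its mean level was 38.5 ± 1.98 FPKM in Ha, 11.6 ± 5.02 in Hb, 48.4 ± 6.64 in La and 21.9 ± 6.41 in Lb (SD, n = 3), apart from the next gene in the order in every group. PECAM1 came next in Ha at 23.2 ± 3.67 FPKM and in Lb at 5.21 ± 2.51 FPKM (SD, n = 3), but in La, at 15.6 ± 1.35 FPKM, it came after VEGFA and KDR, and in Hb, at 1.78 ± 0.12 FPKM, after KDR, VEGFA and FLT1. Its FPKM values overlapped with those of VEGFA and KDR in La, of FLT1, TEK, TIE1, ANGPT2 and CDH5 in Hb and of VEGFA, KDR and FLT1 in Lb, so that its place in the order is clear of the spread in Ha alone. Without Lb2 its mean in Lb was 3.77 FPKM, after VEGFA and KDR. EMCN, a sialomucin of capillary and venous endothelium, had the lowest mean in each group, at 2.83 FPKM in Ha, 0.30 in Hb, 1.41 in La and 0.35 in Lb. Its values overlapped with those of ANGPT2 and TIE1 in Ha and of CDH5 in Hb, and without Ha1 its mean in Ha was 3.52 FPKM, above ANGPT2. Without Hb2 the EMCN mean in Hb was 0.45 FPKM, and without La3 that in La was 2.12 FPKM, still the lowest of the 10.

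The comparison of 30 with 120 days asks how expression in the testis changes as boars of each breed mature. A gene was called when the edgeR quasi-likelihood test gave a Benjamini-Hochberg adjusted p under 0.05 and the log2 fold change was over 1 in size. In HZ boars 8 of the 10 genes were called, all 8 lower at 120 days, where 51.4% of 16548 genes tested were called, 23.2% lower and 28.2% higher. In LC boars 6 of 10 were called, all 6 lower at 120 days, where 47.6% of 16637 genes were called, 20.1% lower and 27.5% higher. The median log2 fold change of the 10 genes was -1.75 in HZ boars and -1.23 in LC boars, against -0.02 and 0.01 for all genes tested. The CPM at 120 days lay below those at 30 days in all libraries for 10 of 10 genes in HZ boars (38.0% of all genes) and for 8 of 10 in LC boars (37.9%). All 10 genes passed the filter on low counts in each comparison. In tissue RNA, fewer endothelial cells and less RNA of these genes per cell cannot be told apart. Nor can either be told from a larger share of RNA from other cells, since CPM is relative to the whole library. Scaling by library totals alone moved the median log2 fold change of all genes to -0.32 in HZ boars and to -0.16 in LC boars, and the 10 genes are read against the TMM medians.

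**Figure D1:**
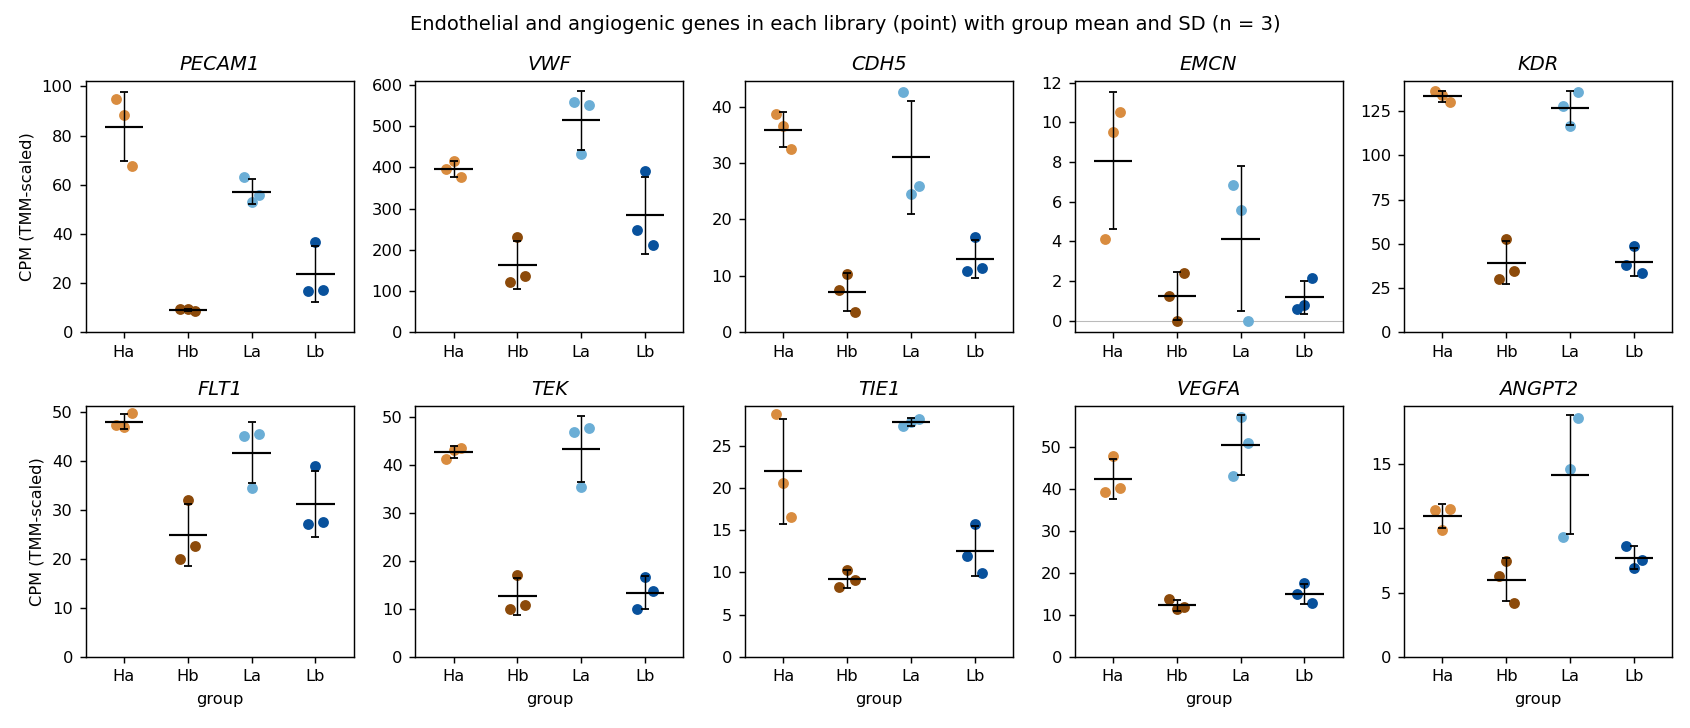
Level of each of the 10 genes in every library, in CPM on linear axes that differ between genes, with a point per library, a horizontal line at the group mean and bars of 1 SD (n = 3). PECAM1 lies between 67.8 and 94.7 CPM in Ha and between 8.71 and 9.35 CPM in Hb.

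PECAM1, of the genes that identify endothelial cells, is an adhesion molecule of endothelial junctions that platelets and leukocytes also carry (NCBI gene 396941, chromosome 12, 14667643 to 14723296 in Sscrofa11.1). In Ha its level was 94.7, 88.5 and 67.8 CPM, and in Hb it was 9.35, 9.29 and 8.71 CPM. In La the level was 62.9, 52.8 and 55.9 CPM, and in Lb it was 16.9, 36.6 and 17.1 CPM. The ages did not overlap in either breed, and Lb2 stood above the other Lb libraries. PECAM1 fell by 3.18 on the log2 scale in HZ boars (SE 0.17, edgeR adjusted p = 7.10e-06), 9.06-fold, and by 1.25 in LC boars (SE 0.29, adjusted p = 0.00453), 2.37-fold.

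CDH5, or VE-cadherin, joins endothelial cells at their junctions (NCBI gene 414737, chromosome 6, 27108560 to 27142145). Its level was 38.6, 36.6 and 32.5 CPM in Ha and 7.45, 10.4 and 3.54 CPM in Hb, and it was 42.6, 24.6 and 26.0 CPM in La and 10.8, 16.9 and 11.3 CPM in Lb. All libraries of 120 days lay below those of 30 days of the same breed, and La1 was high within La. The log2 fold change with age was -2.31 in HZ boars (SE 0.36, edgeR adjusted p = 0.000901) and -1.22 in LC boars (SE 0.26, adjusted p = 0.00337). Without La1 the latter was -0.92, short of the fold threshold.

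VWF (NCBI gene 399543, chromosome 5, 64516627 to 64655938) had levels of 397, 416 and 377 CPM in Ha and 123, 231 and 136 CPM in Hb. It had 558, 432 and 553 CPM in La and 248, 390.5 and 212 CPM in Lb. The ages did not overlap in either breed, with Hb2 and Lb2 the highest at 120 days. VWF fell by 1.27 on the log2 scale in HZ boars (SE 0.24, edgeR adjusted p = 0.00221). In LC boars the log2 fold change was -0.82 (SE 0.22, adjusted p = 0.00898), under the fold threshold, and it was called without Lb2 (-1.12) and with limma on log2(FPKM + 1) (-1.13) or log2(FPKM + 0.1) (-1.17).

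EMCN (NCBI gene 100628129, chromosome 8, 120174091 to 120227971) had levels of 4.11, 9.53 and 10.5 CPM in Ha and of 1.26, 0 and 2.42 CPM in Hb. In La it had 6.86, 5.56 and 0 CPM and in Lb 0.60, 0.80 and 2.13 CPM. The Ha libraries lay above the Hb libraries, and the LC groups overlapped through La3. The log2 fold change in Ha vs Hb was -2.73 (SE 1.03, edgeR adjusted p = 0.0466), a call lost in 6 of 14 alternatives. It was lost on leaving out Ha1 (-3.04), Ha2 (-2.59), Ha3 (-2.48) or Hb1 (-2.78) and in 1 fit of all 12 libraries (-2.73, SE 1.29), and it held without Hb2 (-2.13, SE 0.56). In La vs Lb the log2 fold change was -1.77 (SE 1.18, adjusted p = 0.21), not called, and without La3 it was -2.36 (SE 0.55) and called. The adjusted p ranged over the alternatives from 0.00178 to 0.117 in HZ boars and from 0.00781 to 0.525 in LC boars.

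Among the receptors, KDR (NCBI gene 397311, chromosome 8, 41809116 to 41856379) had levels of 136, 134 and 129.9 CPM in Ha and 30.0, 52.9 and 34.6 CPM in Hb. It had 128, 117 and 136 CPM in La and 37.9, 48.7 and 33.2 CPM in Lb. The breeds overlapped at each age and the ages lay apart in both breeds. KDR fell by 1.75 on the log2 scale in HZ boars (SE 0.21, edgeR adjusted p = 0.000268) and by 1.63 in LC boars (SE 0.15, adjusted p = 2.39e-05).

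FLT1 (NCBI gene 396763, chromosome 11, 5620698 to 5797095) had levels of 47.3, 47.0 and 49.8 CPM in Ha and 19.9, 32.0 and 22.7 CPM in Hb, and of 45.2, 34.6 and 45.5 CPM in La and 27.1, 39.1 and 27.6 CPM in Lb. The ages lay apart in HZ boars, while in LC boars Lb2 lay above La2. The log2 fold change of FLT1 was -0.94 in Ha vs Hb (SE 0.19, edgeR adjusted p = 0.00356), under the fold threshold, and -1.18 and called without Hb2. In La vs Lb it was -0.38 (SE 0.18, adjusted p = 0.0931) and was not called in any of 14 alternatives. FLT1 was also called in Ha vs Hb with library totals alone (-1.23) and with limma on log2(FPKM + 1) (-1.20) or log2(FPKM + 0.1) (-1.50).

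TEK (NCBI gene 396729, chromosome 1, 195938177 to 196052294) had levels of 41.2, 43.1 and 43.6 CPM in Ha and 10.03, 16.97 and 10.8 CPM in Hb, and of 46.9, 35.3 and 47.7 CPM in La and 9.86, 16.6 and 13.7 CPM in Lb. TIE1 (NCBI gene 494022, chromosome 6, 167919662 to 167947253) had 28.7, 20.6 and 16.6 CPM in Ha and 8.26, 10.3 and 9.04 CPM in Hb, and 27.3, 27.8 and 28.2 CPM in La and 12.0, 15.8 and 9.91 CPM in Lb. For both receptors all libraries of 120 days lay below those of 30 days in each breed, and TIE1 was more even in La than in Ha. TEK fell by 1.74 on the log2 scale in HZ boars (SE 0.22, edgeR adjusted p = 0.000343) and by 1.65 in LC boars (SE 0.22, adjusted p = 0.000194). TIE1 fell by 1.24 (SE 0.24, adjusted p = 0.0026) and by 1.11 (SE 0.18, adjusted p = 0.000681). The TIE1 log2 fold change was -0.998 without Ha1 in HZ boars and -0.97 without Lb3 in LC boars, both just short of the fold threshold.

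Of the ligands, VEGFA (NCBI gene 397157, chromosome 7, 38746393 to 38762282) had levels of 39.2, 47.9 and 40.3 CPM in Ha and 13.8, 11.3 and 11.8 CPM in Hb. In La it had 43.1, 57.2 and 51.0 CPM and in Lb 14.9, 17.5 and 12.8 CPM. No library of 120 days reached the level of any library of 30 days, in either breed. VEGFA fell by 1.77 on the log2 scale in HZ boars (SE 0.17, edgeR adjusted p = 8.40e-05), 3.41-fold, and by 1.70 in LC boars (SE 0.16, adjusted p = 3.23e-05), 3.26-fold.

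ANGPT2 (NCBI gene 396730, chromosome 15, 37544177 to 37600925) had levels of 11.4, 9.86 and 11.5 CPM in Ha and 6.31, 7.49 and 4.19 CPM in Hb, and of 9.33, 14.6 and 18.6 CPM in La and 8.66, 6.92 and 7.52 CPM in Lb. The ages did not overlap in either breed, though La1 and Lb1 lay close together. The log2 fold change with age was -0.85 in HZ boars (SE 0.26, edgeR adjusted p = 0.0208) and -0.84 in LC boars (SE 0.26, adjusted p = 0.0196), both under the fold threshold. It was called without Hb2 in HZ boars (-1.07) and without La1 in LC boars (-1.07), and in 3 of 14 alternatives in each breed in all.

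The annotation places TEK, PECAM1, VEGFA and ANGPT2 over other genes: LOC102166359, LOC110255989, TRNAV-AAC and MCPH1. The source of the reads in the shared stretches was not tested, since the annotation table used holds no strand.

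**Figure D2:**
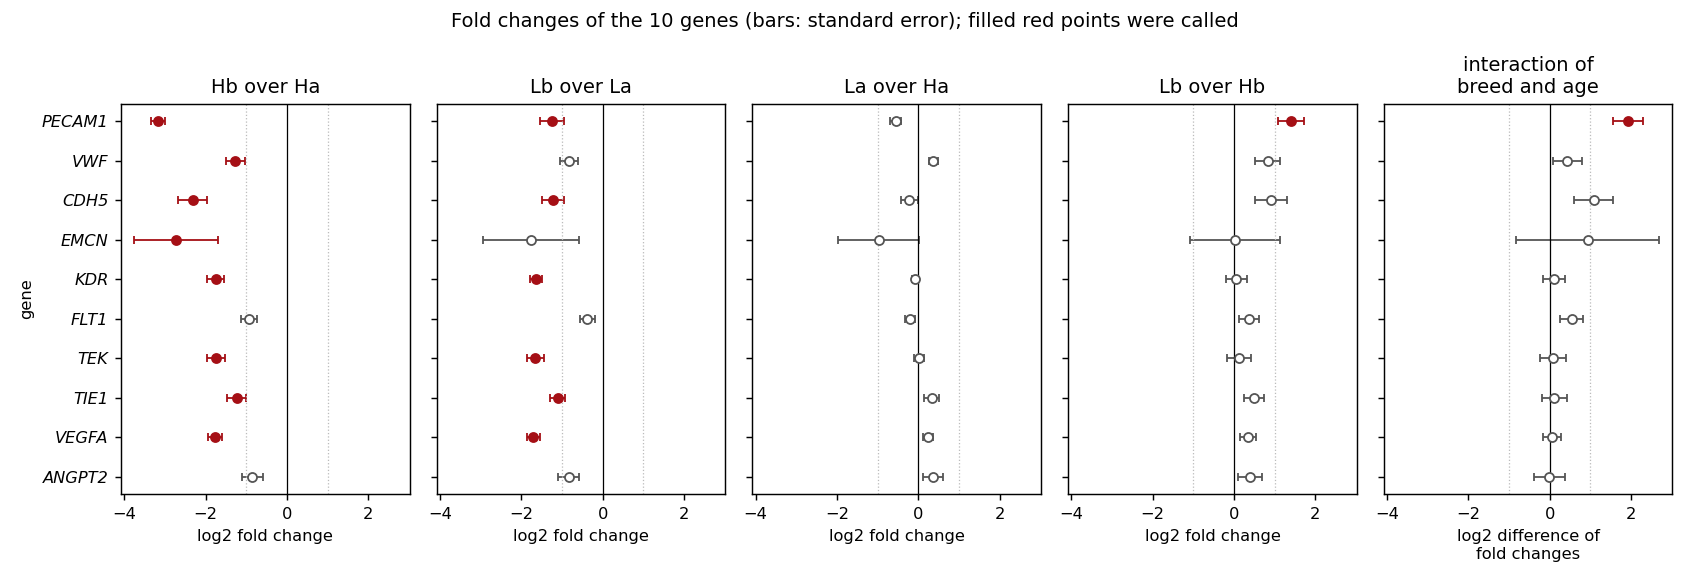
Log2 fold change of each of the 10 genes with age in each breed, between breeds at each age and for the interaction, with bars of 1 standard error and filled red points for called genes. The 10 values of age in HZ boars lie between -3.18 and -0.85 and those in LC boars between -1.77 and -0.38.

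The breeds were compared at each age to see where HZ and LC boars differ. At 30 days 0 of the 10 genes were called by edgeR, where 7.62% of 15648 genes tested were called. Of the 10, 2 had an unadjusted edgeR p under 0.05, a level for which the share of all genes was not taken. DESeq2 called 0 of 10, as did limma on log2 FPKM. The 3 libraries of each breed lay apart for PECAM1 and FLT1, lower in La, and for VWF, higher in La, where 41.7% of all genes lay apart. The log2 fold change of PECAM1 in Ha vs La was -0.56 (SE 0.14, adjusted p = 0.0267), under the fold threshold, that of FLT1 was -0.21 (SE 0.12, adjusted p = 0.242) and that of VWF was 0.36 (SE 0.11, adjusted p = 0.0552).

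At 120 days 1 of the 10 genes was called in Hb vs Lb, PECAM1, higher in Lb, where 3.85% of 16311 genes were called and 2.65% were called higher. With each library left out, the number of all genes called ranged from 97 to 1029, against 628 in the reported test. The PECAM1 log2 fold change was 1.41 (SE 0.32, edgeR adjusted p = 0.0484), with each Lb library above each Hb library. This call was lost on leaving out any 1 of Hb1, Hb2, Hb3, Lb1, Lb2 and Lb3, and the smallest value was 0.95 without Lb2. It was lost in 8 of 14 alternatives, over which the adjusted p ranged from 0.00115 to 0.141. All 10 log2 fold changes were above 0, with a median of 0.38 against 0.004 for all genes tested. All values in the Leydig, Sertoli, mural, stromal and macrophage lists given below were also above 0. Their medians were 1.95, 0.51, 1.16, 2.50 and 1.22. In the germ cell list 9 of 10 were below 0, and the lists not named here had values on both sides. Of the 10 genes, EMCN, KDR and TEK changed sign in some alternatives. The EMCN means went against its fitted sign, at 1.23 CPM in Hb and 1.18 CPM in Lb, and without Hb2 its log2 fold change was -0.58. For CDH5 too the groups lay apart, 2 of 10 with PECAM1 where 32.3% of all genes did, at 0.90 (SE 0.40, adjusted p = 0.202). VWF was 0.83 (SE 0.31, adjusted p = 0.148), and it was called without Hb2 at 1.19. The adjusted p of VWF ranged over its 14 alternatives from 0.0394 to 0.377. Hb and Lb are also the groups at 120 days in the comparisons of age, so that the comparisons share libraries.

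Whether the change with age differed between the breeds was tested as an interaction over all 12 libraries, given as the change in LC boars minus that in HZ boars. PECAM1 was called, 1 of the 10 genes, where 5.14% of 17332 genes were called. With each library left out, the number of all genes called ranged from 437 to 1242, against 890 in the reported test. The PECAM1 interaction was 1.92 on the log2 scale (SE 0.37, edgeR adjusted p = 0.0149), the fall with age being larger in HZ boars. PECAM1 was called in 20 of 20 alternatives, with values from 1.46 to 2.13 and adjusted p from 8.58e-05 to 0.0435. The interaction of CDH5 was 1.08 (SE 0.47, adjusted p = 0.187) and that of FLT1 was 0.54 (SE 0.28, adjusted p = 0.262), neither called. For KDR, TEK, TIE1, VEGFA and ANGPT2 it lay between -0.006 and 0.12, signs that changed between alternatives, and VWF was at 0.43 and EMCN at 0.93, or -0.27 without Hb2 and La3.

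To compare genes without regard to the scaling of libraries, 7 log2 ratios of counts were taken within each library. Ages were compared within breed by an exact permutation test of 400 arrangements, two-sided, whose smallest possible p is 0.005, adjusted over 14 tests for age and breed.

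The ratio of FLT1 to KDR counts was 0.347, 0.351 and 0.383 in Ha and 0.664, 0.605 and 0.655 in Hb, and 0.353, 0.296 and 0.335 in La and 0.716, 0.803 and 0.832 in Lb. It was higher in each library of 120 days than in any library of 30 days, in both breeds. With age the log2 ratio rose by 1.04, or 2.06-fold (exact p = 0.005, adjusted p = 0.035), by 0.83 in HZ boars and 1.26 in LC boars. FLT1 counts were thus less reduced than KDR counts.

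The ratio of ANGPT2 to TEK counts was 0.278, 0.229 and 0.265 in Ha and 0.630, 0.442 and 0.390 in Hb, and 0.199, 0.414 and 0.390 in La and 0.879, 0.418 and 0.549 in Lb. The ages lay apart in both breeds, by a small margin between La2 and Lb2. The log2 ratio rose by 0.89 with age (exact p = 0.005, adjusted p = 0.035), by 0.90 in HZ boars and 0.88 in LC boars. Both ratios fell short of the adjusted threshold without La1, La2 or Lb1. The FLT1 to KDR log2 difference was then 1.07, 1.01 and 1.08, with an exact p of 0.005 each time, the smallest that the 200 arrangements left allow, and its adjusted p of 0.07 turned on the p of the other ratios. That of ANGPT2 to TEK was 0.72, 0.98 and 0.74, with exact p of 0.01, 0.01 and 0.02, and over the alternatives the adjusted p ranged from 0.035 to 0.146 for both.

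The ratio of VWF to CDH5 counts was 10.3, 11.4 and 11.6 in Ha and 16.5, 22.2 and 38.4 in Hb, and 13.1, 17.5 and 21.3 in La and 22.9, 23.0 and 18.7 in Lb. The ages lay apart in HZ boars and overlapped in LC boars, where Lb3 lay under La3. The log2 ratio rose by 0.73 with age (exact p = 0.01, adjusted p = 0.0467), with 1.12 in HZ boars and 0.34 in LC boars. The call was lost in 8 of 15 alternatives, at 0.64 to 0.75, and the adjusted p ranged from 0.035 to 0.219. The log2 ratio of VEGFA to KDR differed by -0.02 between the ages (exact p = 0.935, adjusted p = 1), that of PECAM1 to CDH5 by -0.43 (exact p = 0.2, adjusted p = 0.4) and that of TIE1 to TEK by 0.56 (exact p = 0.02, adjusted p = 0.07). That of EMCN to CDH5 differed by -0.14 (exact p = 0.9, adjusted p = 1), the mean of -1.70 in HZ boars and 1.41 in LC boars. Without Hb2 and La3, where EMCN is at 0, it was -0.26, the mean of 0.73 and -1.24. Between breeds within age the exact permutation test put 0 of 7 ratios under an adjusted p of 0.05, and the smallest unadjusted p was 0.105, for TIE1 to TEK. The log2 ratio of VEGFA to KDR differed by 0.28 between breeds (exact p = 0.16, adjusted p = 0.373), and without Hb1 by 0.40, under the threshold (exact p = 0.01, adjusted p = 0.035).

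**Figure D3:**
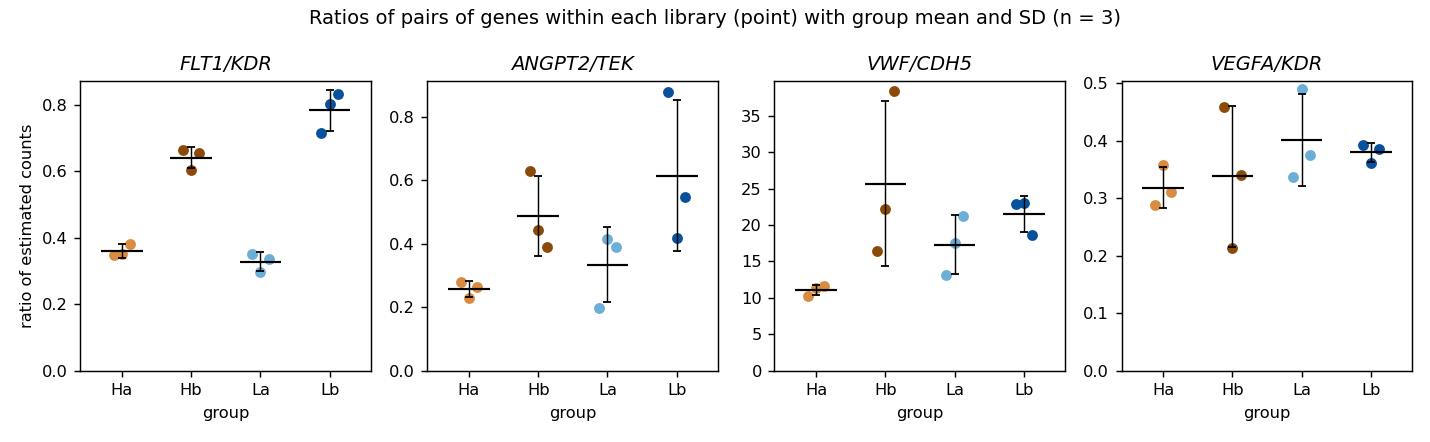
Ratio of estimated counts of FLT1 to KDR, ANGPT2 to TEK, VWF to CDH5 and VEGFA to KDR within each library, on linear axes, with a point per library, a line at the group mean and bars of 1 SD (n = 3). FLT1 to KDR lies between 0.296 and 0.383 in the libraries of 30 days and between 0.605 and 0.832 in those of 120 days.

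The other genes of both pathways were given by a list of 10. In Ha vs Hb 4 of 10 were called lower (23.2% of all genes) and 0 higher, and in La vs Lb 6 of 10 were called lower (20.1% of all genes) and 0 higher, with median log2 fold changes of -1.25 and -1.43. NRP1, a co-receptor that binds VEGFA beside KDR, had levels of 328, 285 and 240.3 CPM in Ha and 118, 93.2 and 81.7 CPM in Hb, and 248, 238 and 255 CPM in La and 94.3, 105 and 74.9 CPM in Lb, so that the ages lay apart in both breeds. Its log2 fold change was -1.53 in HZ boars and -1.40 in LC boars, and that of NRP2, its relative, was -1.53 and -1.42. VEGFC, a growth factor of lymphatic vessels, was at -2.12 and -1.54, and ANGPT4, another ligand of TEK, at -2.32 and -2.00, all called.

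VEGFB and PGF, which bind FLT1 but not KDR, were called in LC boars, at -1.64 and -1.51, and were at -0.78 (adjusted p = 0.0359) and -0.24 (adjusted p = 0.847), not called, in HZ boars. The PGF call was lost in 1 fit of all 12 libraries (-1.53, edgeR adjusted p = 0.126) and with limma on log2(FPKM + 1) (-0.77). VEGFB was called in HZ boars with library totals alone (-1.07) and with limma on log2(FPKM + 1) (-1.15) or log2(FPKM + 0.1) (-1.31). PGF had 2.11, 1.25 and 2.03 CPM in Ha and 3.90, 0.09 and 0.52 CPM in Hb, so that Hb1 lay above Ha and the other 2 below it, and without Hb1 it was called at -2.59. The interaction was not called for either, at -0.88 (adjusted p = 0.105) and -1.28 (adjusted p = 0.541), while without Hb1 that of VEGFB was called at -1.09 and that of PGF was 1.11. ANGPT1, the activating ligand of TEK, had between 1.25 and 4.37 CPM in the 12 libraries and was not called with age, at 0.06 in HZ boars and -0.71 in LC boars, the latter called without Lb3 (-1.13) and with limma on log2(FPKM + 0.1) (-1.16). PTPRB, the phosphatase that restrains TEK, was at -0.97 and -0.65, under the fold threshold, and was called in HZ boars in 5 of 14 alternatives, at -1.02 to -1.40. VEGFD was at 0.26 and -0.61 and FLT4, the receptor of VEGFC, at -1.78 and -1.44, none of them called, and FLT4 was listed at 0 in Ha2, Hb2, Hb3 and Lb3. Between breeds edgeR called 0 of these 10 at either age, where 7.62% of all genes were called at 30 days and 3.85% at 120 days. An unadjusted edgeR p under 0.05 was reached by 3 of 10 at 30 days and 2 of 10 at 120 days. The share of all genes at that level was not taken. DESeq2 called 0 at 30 days and 1 at 120 days, where it called 1153 of all genes. VEGFB in Ha vs La was at 0.94 (edgeR adjusted p = 0.0025), under the fold threshold, and called without Ha3 (1.005).

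Of 21 further genes of endothelial identity, 20 were tested with age. In Ha vs Hb 15 were called lower (23.2% of all genes) and 1 higher (28.2%), and in La vs Lb 13 were called lower (20.1%) and 1 higher (27.5%), with median log2 fold changes of -1.34 and -1.24. CD34, a sialomucin of endothelium that stromal cells also carry, fell by 3.38 on the log2 scale in HZ boars and by 1.64 in LC boars. CLEC14A, a lectin of endothelium, fell by 1.53 and 1.24. S1PR1 was not tested with age: it was at 0 in each library of 120 days and in 3 of those of 30 days.

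NOS3, the endothelial nitric oxide synthase, was the gene called higher in both breeds. Tissue RNA does not show which cells the NOS3 RNA came from. NOS3 had levels of 25.2, 23.1 and 22.9 CPM in Ha and 121, 84.1 and 81.2 CPM in Hb, and 15.2, 10.2 and 11.3 CPM in La and 66.4, 70.7 and 55.1 CPM in Lb. The ages lay apart in both breeds, with 120 days above 30 days. Its log2 fold change was 2.02 in HZ boars (SE 0.19, edgeR adjusted p = 8.21e-05) and 2.43 in LC boars (SE 0.18, adjusted p = 7.46e-06), opposite to that of the 10 genes.

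In 3 of the 21 genes of this list the change with age differed between breeds by the interaction, where 5.14% of all genes were called. CD34 had 85.4, 65.4 and 71.5 CPM in Ha, 7.63, 6.29 and 7.27 in Hb, 97.8, 72.5 and 85.5 in La and 17.3, 36.5 and 26.2 in Lb. EGFL7, a secreted factor of endothelium, had 40.3, 45.0 and 31.5 CPM in Ha, 6.42, 7.58 and 6.75 in Hb, 31.0, 31.0 and 31.5 in La and 12.3, 21.6 and 11.7 in Lb. Both were lowest in Hb, as PECAM1 was, and each Lb library lay above each Hb library. The interaction was 1.73 for CD34 (SE 0.33, edgeR adjusted p = 0.0142), called in 20 of 20 alternatives, and 1.47 for EGFL7 (SE 0.31, adjusted p = 0.0211), a call lost without Ha2, at 1.36. Over the alternatives the adjusted p ranged from 0.000128 to 0.0446 for CD34 and from 0.000736 to 0.0535 for EGFL7. CD34 was also called in Hb vs Lb, at 1.96 (SE 0.29, adjusted p = 0.0163), a call lost in 4 of 14 alternatives, without Hb3 (1.99), Lb2 (1.69) or Lb3 (1.96) among them.

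ACVRL1, a receptor of the BMP family in endothelium, went the other way. It had 29.0, 29.6 and 33.3 CPM in Ha, 18.7, 40.4 and 37.9 in Hb, 56.2, 71.8 and 71.2 in La and 10.5, 13.7 and 18.3 in Lb. The HZ groups overlapped, La was the highest and Lb the lowest. The log2 fold change with age was 0.09 in HZ boars and -2.18 in LC boars, with an interaction of -2.29 (SE 0.38, edgeR adjusted p = 0.00834), called in 20 of 20 alternatives. ACVRL1 was higher in La than in Ha by 1.10 on the log2 scale (SE 0.12, adjusted p = 0.00173), a call lost with limma on log2(FPKM + 1) (0.97).

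Of 8 endothelial Notch and ephrin genes, which act in the division of vessels into arteries and veins, 3 were called lower in HZ boars (23.2% of all genes) and 5 in LC boars (20.1%), and 0 higher. Over 14 alternatives the count ranged from 3 to 6 in HZ boars and was 5 throughout in LC boars. EPHB4, a receptor of venous endothelium, fell by 2.37 and 1.98 on the log2 scale. HEY2, a Notch target of arteries, was called in La vs Lb at -2.59, and in Ha vs La at 1.38, the latter lost in 1 fit of all 12 libraries (1.38, with a wider error). Of 5 lymphatic genes 3 were called lower with age in each breed, of which PDPN in LC boars, at -2.39, lost its call in 6 of 14 alternatives. The chemokine CCL21 fell by 2.93 in HZ boars and by 1.43 in LC boars, and the hyaluronan receptor LYVE1 by 1.06 and 2.21. RELN was at 0 estimated counts in Ha1 and Ha2 and at 22.21 in Ha3, and was called higher in Hb than in Ha at 5.79 and higher in La than in Ha at 4.43. Over the alternatives these ranged from 0.81 to 11.4 and from 0.51 to 10.2. The RELN call of age was lost with limma on log2(FPKM + 1) (0.81), and that of breed in 4 of 14 alternatives, without La2 (4.44) or La3 (4.42) among them. Its interaction was called at -5.11 (SE 1.303, edgeR adjusted p = 0.0393), a call lost in 11 of 20 alternatives.

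Mural cells surround the endothelium. In tissue RNA the cells that the genes of this list came from, ACTA2 among them, cannot be told, and mural cells need not be their only source. Of 10 mural genes 8 were called lower in HZ boars (23.2% of all genes) and 0 higher, and in LC boars 4 were called lower (20.1%) and 1 higher (27.5%). Their summed level was 627, 592 and 683 CPM in Ha and 190.2, 219 and 168 CPM in Hb, and 661, 562 and 664 CPM in La and 464, 542 and 601 CPM in Lb. ACTA2 was the most abundant by FPKM, and the sums of HZ boars lay apart by age while those of LC boars overlapped. Of the LC sums, ACTA2 made up 110, 96.1 and 119 CPM in La and 244, 245 and 352 CPM in Lb. CSPG4, the NG2 proteoglycan of pericytes, fell by 3.24 on the log2 scale in HZ boars and by 1.46 in LC boars. ACTA2, smooth muscle actin, fell by 1.14 in HZ boars and rose by 1.42 in LC boars, with an interaction of 2.54 (SE 0.25, edgeR adjusted p = 0.00113). In all 4 of 10 mural genes had a called interaction (5.14% of all genes), each above 0, and 4 of 10 were called higher in Lb than in Hb (2.65% of all genes), with MCAM at 1.55, a call lost with limma on log2(FPKM + 1) (0.90). Over the alternatives these counts ranged from 3 to 6 and from 2 to 5.

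Markers of other cells moved with age too, where 23.2% and 20.1% of all genes were called lower in HZ and LC boars and 28.2% and 27.5% higher. Of 10 germ cell markers 9 were called higher in HZ boars and 10 in LC boars, with ODF1 at 11.06 on the log2 scale in the former and PIWIL1 at 6.49 in the latter. Their summed level was 138, 134 and 85.4 CPM in Ha and 6146, 5923 and 7513 CPM in Hb, and 50.4, 45.8 and 53.1 CPM in La and 3967, 3413 and 3303 CPM in Lb. The ages lay far apart, PRM1, a protamine of spermatids, was the most abundant, and the sums at 120 days were higher in HZ than in LC boars. Of 7 Leydig markers 4 were called lower in HZ boars, with HSD3B1 at -1.60, and 5 in LC boars, with HSD17B3 at -1.02, the latter lost in 3 of 14 alternatives. Their sums were 10098, 9641 and 8777 CPM in Ha and 4021, 329.9 and 266 CPM in Hb, and 13738, 9386 and 11420 CPM in La and 4903, 7370.3 and 3055 CPM in Lb, lower at 120 days in both breeds. Of 8 Sertoli markers 4 were called lower in each breed, with GATA4 at -2.19 in HZ boars and AMH at -6.35 in LC boars. Their sums were 1271, 1216.5 and 1669.6 CPM in Ha, 401, 576 and 464 CPM in Hb, 2654, 3234 and 2969 CPM in La and 602, 748 and 634 CPM in Lb, likewise lower at 120 days.

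Of 6 stromal markers 6 were called lower with age in HZ boars (23.2% of all genes), with COL1A1 at -4.99, and 4 in LC boars (20.1%), with DCN at -1.91. Their sums were 4403, 4281 and 4152 CPM in Ha, 509, 211 and 154 CPM in Hb, 6575.5, 5895 and 7394 CPM in La and 2739, 2612 and 2085 CPM in Lb, with COL3A1 the most abundant. The sum was lowest in Hb, and 3 of 6 stromal markers had a called interaction above 0 (5.14% of all genes were called), with COL1A1 at 4.02. Over 20 alternatives that count ranged from 1 to 3. All 5 macrophage markers were called lower in HZ boars (23.2% of all genes) and 4 in LC boars (20.1%), with CD163 at -3.01 and -2.53. Their sums were 124, 101 and 107 CPM in Ha, 17.3, 20.02 and 10.6 CPM in Hb, 123, 107 and 117 CPM in La and 21.2, 37.6 and 35.6 CPM in Lb, with CSF1R the most abundant, and each Lb library lay above each Hb library.

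Of 5 markers of platelets and blood that were tested, 3 were called lower in HZ boars (23.2% of all genes), with ALAS2 at -2.84, and 2 in LC boars (20.1%), with PTPRC at -1.92, the latter lost with limma on log2(FPKM + 1) (-0.75). HBB was the most abundant. Their sums were 116, 150.3 and 56.1 CPM in Ha, 13.02, 18.8 and 27.2 CPM in Hb, 84.0, 35.4 and 37.6 CPM in La and 16.8, 20.1 and 37.4 CPM in Lb, and the LC groups overlapped. The summed level of the 10 genes described here was 838, 853 and 779.7 CPM in Ha, 229, 381 and 243 CPM in Hb, 971, 801 and 961 CPM in La and 387, 589 and 347 CPM in Lb. The ages lay apart in both breeds, as did those of the germ cell, Leydig, Sertoli, stromal and macrophage sums. The part of these cell types in the change of the 10 genes with age, and in the interaction of PECAM1, was not tested.

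Hypoxia acts on VEGFA through HIF1A. Of 11 genes that respond to hypoxia, 3 were called lower and 2 higher in HZ boars, and 3 lower and 1 higher in LC boars, where 23.2% and 20.1% of all genes tested were called lower and 28.2% and 27.5% higher. Their log2 fold changes ranged from -1.70 to 4.24 in HZ boars and from -1.69 to 4.40 in LC boars, and their part in the change of VEGFA was not tested. CA9, a carbonic anhydrase, rose by 4.24 and 4.40 on the log2 scale, BNIP3 fell by 1.27 in HZ boars and EGLN3 by 1.62 in LC boars. Their summed level was 558, 561 and 529 CPM in Ha, 458, 547 and 480.1 CPM in Hb, 463, 492 and 527 CPM in La and 479, 446 and 461 CPM in Lb, and HIF1A was the most abundant.

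Within groups 7 of the 10 genes, the identity genes and receptors other than EMCN, varied together. After the group means were subtracted from log2 CPM, Pearson's r over the 12 libraries was above 0 in 21 of their 21 pairs, with a median of 0.62 and a range from 0.31 to 0.97. The highest was that of VWF and KDR, whose counts share depth and scaling in each library. In pairs of VEGFA or ANGPT2 with these genes or each other it was above 0 in 11 of 15, with a median of 0.07 and a range from -0.25 to 0.42. In pairs with EMCN r was below 0 in 9 of 9, from -0.77 to -0.001, and without Hb2 and La3 in 7 of 9, from -0.69 to 0.38, so that 32 of all 45 pairs were above 0. The median r of all 45 pairs was 0.24. EMCN was set apart with these values known, and Hb2 and Lb2 held the highest CPM of their groups for 7 and 8 of the 10 genes. The r of pairs drawn from all genes was not taken. This is a description, and no test was made.

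The genes most like the mean standardised profile of the 8 identity genes and receptors were sought among 16526 other genes. EMCN, at 0 counts in Hb2 and La3, is among the 8, and no profile without it was taken. After group means were subtracted the profile was -0.149 in La3, the lowest of La, so the r values below can partly follow the EMCN zeros. Over the 12 libraries Pearson's r was 0.997 for STOML2, 0.996 for MALL, 0.992 for MRPL55, 0.989 for SLC9A3R2 and 0.988 for PLXND1, the last a semaphorin receptor of endothelium. After group means were subtracted it was 0.967 for STOML2, 0.956 for MALL, 0.947 for PIK3IP1, 0.935 for RPSA and 0.930 for RNF216. They were picked as the highest of all candidates, and the libraries share age, breed and depth.

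Long noncoding RNAs were read from their own table by transcript. Of 10706 transcripts 6 lay within 10 kb of the 10 genes, and 2 of these had 3 counts or fewer in each library. LOC110261244 (chromosome 6, 167951182 to 167957940) lies 3928 bases from TIE1. It had 4, 8 and 4 estimated counts in Ha, 37, 35 and 17 in Hb, 13, 9 and 3 in La and 25, 29 and 14 in Lb. In CPM the ages lay apart in HZ boars and overlapped in LC boars, where Lb3 at 20.9 lay under La1 at 22.35. It was called in Ha vs Hb at 2.25 (SE 0.52, edgeR adjusted p = 0.00764), where 56.2% of 2909 lncRNA transcripts were called, and not in La vs Lb at 1.04 (SE 0.58, adjusted p = 0.154), where 61.1% of 2988 were called. In Hb vs Lb it was at -0.46 (SE 0.46, adjusted p = 0.654), where 3.14% were called.

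LOC106510374, 719 bases from KDR, had transcripts with at most 12 counts in any library, and it was not tested for lack of counts. LOC106504420, 24 bases from VEGFA, had 12, 14 and 5 counts in Ha, 6, 2 and 0 in Hb, 1, 13 and 16 in La and 6, 9 and 10 in Lb. Its groups overlapped, and it was tested in Ha vs La alone, at 0.07 on the log2 scale (SE 0.91, adjusted p = 0.972), where 6.35% of lncRNA transcripts were called.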

How the data were processed

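The deposited tables hold, per the file headers, an estimated count and an FPKM for each gene or transcript in each library. The authors filtered reads by quality with fastp 0.18.0, removed ribosomal reads with Bowtie2 2.2.8, aligned with HISAT2 2.1.0, assembled with StringTie 1.3.4 and took FPKM from StringTie. How the estimated counts were made, and the use of strand there, is not given in the sources used here. Counts were fitted with edgeR 4.0.16 in R 4.3.3: filterByExpr with a minimum count of 10, TMM scaling, a quasi-likelihood test in each comparison and Benjamini-Hochberg adjustment over all genes tested. The interaction was fitted over all 12 libraries. Single genes had no permutation test, since 3 libraries against 3 allow no p under 0.1. Ratios had 0.5 added to each count. Correlations used log2 CPM with a prior count of 2.

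Alternatives were DESeq2 1.42.0, library totals alone, no filter, a stricter filter, limma 3.58.1 with trend on log2(FPKM + 1) and log2(FPKM + 0.1), 1 fit of all libraries, the replicate block and leaving out each library. Leaving out Hb2 and La3 together was chosen after seeing the data, and in a comparison of 2 groups it is the fit without 1 of them, counted once. Tables were made with pandas 2.3.3 and numpy 2.4.6. Named from 12 lists other than the 10 genes were all pathway genes, the called gene of smallest adjusted p in each direction (for the lists of other cells, only in the comparisons of age), the most abundant marker, those at 0, and the 5 genes most like the profile by each measure. EGFL7, and the values of some genes in a comparison outside that rule, were added after their values were seen. PF4, a platelet marker of the lists, was not in the table. The 10 genes and the lists were chosen with earlier results of these data known. Floors for a count of 0 cover counting error only.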

Additional observations from a re-analysis of the deposited data

Results flagged for a closer look

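In PECAM1 and 3 further genes of endothelial identity the change with age differed between the breeds by the test of the interaction, given as the log2 change in LC boars minus that in HZ boars. PECAM1 had an interaction of 1.92, CD34 of 1.73 and EGFL7 of 1.47, each with a larger fall in HZ boars. ACVRL1 had an interaction of -2.29, with a log2 fold change of 0.09 in HZ boars and a fall in LC boars. They are 1 of the 10 genes and 3 of 21, where 5.14% of all genes were called. The median interaction was 1.12 for the mural, 1.74 for the stromal and 1.02 for the macrophage list, with 0 values below 0 in each. It was 1.39 for the platelet and blood list, with 2 values below 0, and 0.95 for the Leydig list, with 1. It was 0.27 for the 10 genes, with 1 value below 0, and 0.27 for the other endothelial identity genes, with 7. It was 0.11 for the other VEGF and angiopoietin genes, 0.12 for the Notch and ephrin genes and 0.525 for the lymphatic genes. It was -0.0046 for the hypoxia list, 0.01 for the Sertoli and -0.46 for the germ cell list, and 0.02 for all genes. AIF1, a macrophage marker, was called at 1.94, and in 11 of 20 alternatives. The cause of these interactions was not tested.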

How the results depend on the processing

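Of the log2 fold changes and interactions of the 10 genes, 372 values kept direction and side of the threshold under settings other than leaving out 1 library, 9 became called, 4 lost the call and 15 changed sign. In a comparison of 2 groups, leaving out Hb2 and La3 together is the fit without the 1 it holds and is not counted again. With 1 library left out the numbers were 312, 6, 13 and 29. None of the values that changed sign was called in the reported test, and the cause was not tested.

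Signs changed under these settings. With Hb2 and La3 left out, TEK in Ha vs La was -0.045, EMCN in Hb vs Lb -0.58, and the interactions of EMCN, VEGFA and ANGPT2 -0.27, -0.0019 and 0.42. The ratio of VEGFA to KDR with age was then 0.11 and that of PECAM1 to CDH5 with breed -0.21. With library totals alone TEK in Ha vs La was -0.029 and the interaction of ANGPT2 0.14. With limma on log2(FPKM + 0.1) and log2(FPKM + 1), TEK was -0.044 and -0.038, the interaction of VEGFA -0.12 and -0.14 and that of ANGPT2 0.25 and 0.079. EMCN in Hb vs Lb was -0.016 with DESeq2 and -0.030 in 1 fit of all libraries, and on FPKM VEGFA to KDR with age was 0.19.

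With each library left out in turn, TEK ranged from -0.045 to 0.15 in Ha vs La and from -0.04 to 0.43 in Hb vs Lb, KDR in Hb vs Lb from -0.11 to 0.36 and EMCN there from -0.75 to 1.01. Interactions ranged from -0.055 to 0.39 for KDR, -0.11 to 0.35 for TEK, -0.086 to 0.32 for TIE1, -0.067 to 0.20 for VEGFA and -0.23 to 0.28 for ANGPT2. Ratios with age ranged from -0.15 to 0.13 for VEGFA to KDR and from -1.47 to 1.07 for EMCN to CDH5, and with breed from -0.16 to 0.21 for PECAM1 to CDH5 and from -2.43 to 0.11 for EMCN to CDH5.

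The number of the 10 genes called ranged, with each library left out, from 6 to 10 in Ha vs Hb, 5 to 7 in La vs Lb, 0 to 0 in Ha vs La, 0 to 1 in Hb vs Lb and 1 to 1 for the interaction. It was 0 in Hb vs Lb with limma on log2(FPKM + 1). All genes called ranged from 97 to 1029 in Hb vs Lb and from 437 to 1242 for the interaction. They numbered 507 in Ha vs La with limma on log2(FPKM + 1). In Hb vs Lb they numbered 1153 with DESeq2, 1029 without Hb2 and La3 and 1258 in 1 fit, and for the interaction 1363 with DESeq2 and 1365 with limma on log2(FPKM + 0.1). Ratios that passed ranged from 0 to 3 with age and from 0 to 1 with breed.

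Replicate numbers were also fitted as a replicate block. A library's nearest match in another group had its own number in 10 of 36 cases, and between Ha and Hb in 6 of 6. The correlations of same-numbered libraries of Ha and Hb were from 0.016 to 0.053, under the limit of 0.1 used here, so the numbers are not taken as pairs. With the replicate block 0 of the 10 genes and 154 of all genes were called in Hb vs Lb and 0 ratios passed with age, the sign-flip test used there having a smallest p of 0.03125. By edgeR with the block the calls of EMCN in Ha vs Hb (-3.05, adjusted p = 0.0596), CD34 in Hb vs Lb (1.90, adjusted p = 0.0581) and PDPN in La vs Lb (-2.64, adjusted p = 0.0602) were lost too. TEK in Ha vs La was then -0.00093 and the interaction of ANGPT2 0.0048.

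EMCN was at 0 counts in Hb2 and La3, libraries of 22707568 and 23563949 counts, and at 36.58 in Hb3, the library of least depth, and the cause was not tested. Replicates within a group, which are separate boars, differed beyond counting noise, with a chi-square per degree of freedom from 17.8 to 95.0 over pairs of libraries. This sets animals against counting error alone, so no conclusion is drawn from it.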
